A study of Mus musculus with 9 samples.

Results

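Tslp encodes thymic stromal lymphopoietin, a cytokine of epithelial cells, and is described here with the genes of its receptor, of related cytokines and of proteins known to induce it. Of the 10 genes chosen by symbol, 8 were measured: Tslp, Crlf2, Il7, Il7r, Il33, Vdr, Rxra and Rxrb, out of 18194 genes tested. They had 13 probe sets annotated to a single symbol. Every probe set is given, and the brightest, by its mean log2 value on all arrays, stands for its gene. The annotation table used here lists no probe set with a single symbol for Il1rl1, the IL-33 receptor gene, or F2rl1, the gene of protease-activated receptor PAR2. Both were thus not analysed here, and probe sets with several symbols were not searched for them.

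RNA was hybridised to 9 arrays, 3 for each of ZsG plus, ZsG minus mTEC and ZsG minus cTEC. The mice were C57BL/6 by their labels and 8 to 20 weeks old. In the transgene, a modified bacterial artificial chromosome, the green fluorescent reporter ZsG sits at the start codon of Tslp. The reporter thus stands apart from the endogenous Tslp gene. TEC stands for thymic epithelial cell, of the medulla (mTEC) or the cortex (cTEC). The labels do not state whether ZsG plus cells came from medulla or cortex. They call all samples keratinocytes, which is at odds with the titles used for grouping. Separate animals are not stated for the replicates, so the p-values cover the spread of these samples alone, and that spread may be technical.

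TSLP signals through a receptor made of the TSLP receptor chain, encoded by Crlf2, and the IL-7 receptor alpha chain, encoded by Il7r. IL-7 uses that same alpha chain together with the common gamma chain and is needed for the growth of early thymocytes. IL-33 is, like TSLP, an alarm cytokine of barrier epithelium and stroma. In mouse keratinocytes the vitamin D receptor VDR, which binds DNA as a dimer with a retinoid X receptor (RXR), is known to regulate Tslp.

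Markers of the sorted cells were read first. The summed intensity of 9 mTEC markers was 110473 to 149290 for ZsG plus and 105558 to 118174 for ZsG minus mTEC, against 36972 to 44763 for ZsG minus cTEC. For 8 cTEC markers the sum was 23776 to 46060 for ZsG plus and 27921 to 42919 for ZsG minus mTEC, against 199146 to 238747 for ZsG minus cTEC. By these sums ZsG plus lay with ZsG minus mTEC. The brightest markers weigh most in these sums, and single markers did not all follow them. For ZsG plus against ZsG minus cTEC, 7 of 9 mTEC markers had a log2 difference above 0. Of these, 2 had a limma adjusted p under 0.05. Krt14 and Tnfrsf11a lay at −0.22 and −0.15. Of 8 cTEC markers 7 lay below 0, 4 of them with such a p, and Foxn1 lay at 0.70. Against ZsG minus mTEC, 0 markers of either list had such a p. The arrays of ZsG plus varied most: on the log2 scale a gene's SD had a median of 1.30 there, beside 0.63 for ZsG minus mTEC and 0.61 for ZsG minus cTEC. Across genes, r between arrays was 0.614 to 0.687 among ZsG plus replicates, 0.837 to 0.849 for ZsG minus mTEC and 0.852 to 0.886 for ZsG minus cTEC. As a measure of dim signal, 6 probe sets of the bacterial sequences PheX and DapX read 3.77 to 341 over all arrays. Whether these sequences were added to the RNA is not given in the sources used here. A gene is called dim on an array where it read no higher than the brightest of these on that array. The brightest read 144, 341 and 307 in the ZsG plus replicates, 131, 139 and 48.7 in the ZsG minus mTEC replicates, and 128, 142 and 241 in the ZsG minus cTEC replicates. The same reading can thus be dim on ZsG plus replicates 2 and 3 and not on other arrays.

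No measured gene of the group passed the threshold in any comparison (limma, adjusted p under 0.05 over all genes). Against ZsG minus mTEC, 0 of 8 passed, where 0.220% of all genes did, 0.0165% higher and 0.203% lower. Against ZsG minus cTEC it was 0 of 8, where 1.74% of all genes passed, 0.599% higher and 1.14% lower. When the ZsG minus groups were compared, mTEC over cTEC, it was 0 of 8, where 0.627% passed, 0.528% higher and 0.0989% lower. In a fit of all probe sets with a single symbol, chosen after seeing the data, 0 of the 13 probe sets passed, where 0.235%, 1.53% and 0.123% of all did in these comparisons. At an unadjusted p under 0.05 there were 2 of 8 in each comparison, or 25%, beside 13.4%, 18.7% and 12.3% of all genes in that order. These were Rxra and Rxrb against ZsG minus mTEC, Il7r and Rxrb against ZsG minus cTEC, and Vdr and Il33 between the ZsG minus groups.

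The median log2 difference of the 8 genes was −0.33 for ZsG plus against ZsG minus mTEC, beside −0.33 over all genes. It was −0.43, beside −0.14, for ZsG plus against ZsG minus cTEC, and −0.65, beside 0.09, between ZsG minus mTEC and ZsG minus cTEC. Centring each array on its median adds 0.63, 0.45 and −0.17 to every difference in these comparisons, in that order. Groups did not overlap in 2 of 8 genes for ZsG plus and ZsG minus mTEC, beside 18.1% of all genes. They did not overlap in 2 of 8 for ZsG plus and ZsG minus cTEC, beside 23.3%, and in 3 of 8 for the ZsG minus groups, beside 28.5%.

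**Figure D1:**
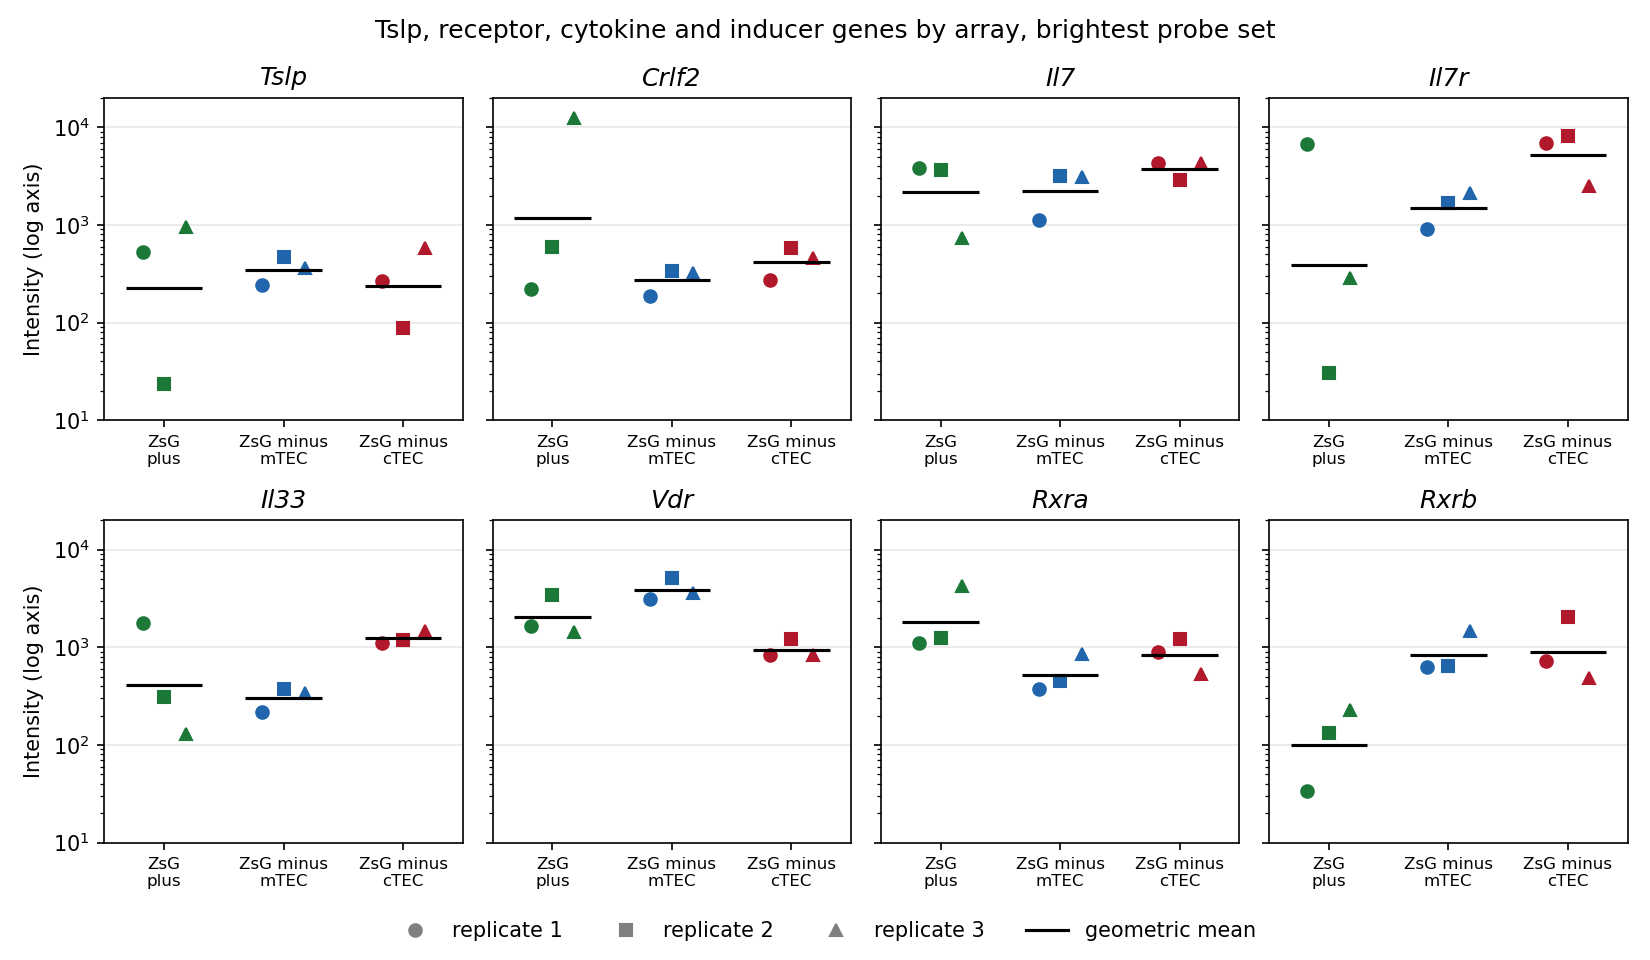
Intensity on a log axis of the brightest probe set of each gene on every array, by group; the symbol gives the replicate number and the bar the geometric mean of 3 arrays. Tslp, Crlf2, Il7r and Il33 spread widely over the ZsG plus arrays, while Vdr separates ZsG minus mTEC (3119 to 5161) from ZsG minus cTEC (825 to 1228) and all ZsG plus values of Rxrb lie below those of the other groups.

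Tslp had 1 probe set. It read 526, 23.4 and 953 in the ZsG plus replicates, 244, 472 and 359 in the ZsG minus mTEC replicates, and 264, 88.8 and 576 in the ZsG minus cTEC replicates. ZsG plus held both the highest and the lowest of the 9 readings, and all groups overlapped. It was dim on ZsG plus replicate 2 and on ZsG minus cTEC replicate 2. The log2 difference was −0.61 ± 1.30 (SE, n = 3 arrays per group here and below) for ZsG plus against ZsG minus mTEC, with a 95% interval of −3.54 to 2.33. For ZsG plus against ZsG minus cTEC it was −0.07 ± 1.30, with an interval of −3.01 to 2.87. The limma adjusted p-values were 0.864 and 0.983. These intervals span several fold in both directions.

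The sign for Tslp turned when single arrays were left out. Without ZsG plus replicate 2 the difference was 1.03 ± 0.84 against ZsG minus mTEC (limma adjusted p = 0.549) and 1.57 ± 0.84 against ZsG minus cTEC (limma adjusted p = 0.311). Over 18 alternatives the limma adjusted p ran from 0.549 to 0.996 in the first comparison and from 0.311 to 0.999 in the second. Against ZsG minus cTEC the difference was also above 0 without ZsG minus cTEC replicate 1, at 0.0061 ± 1.55, and without ZsG minus cTEC replicate 3, at 0.57 ± 1.47. With each array centred on its median the sign also turned, to 0.02 against ZsG minus mTEC and 0.38 against ZsG minus cTEC. Between ZsG minus mTEC and ZsG minus cTEC Tslp differed by 0.54 ± 1.30 (limma adjusted p = 0.959), and by −0.18 ± 1.45 without ZsG minus cTEC replicate 2.

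The genes nearest to Tslp in pattern were found by the mean absolute difference of log2 values over the 9 arrays, each gene centred on its own mean. They were B230217C12Rik at 0.41, Tcea3, which encodes a transcription elongation factor, at 0.42, and 9430053O09Rik at 0.45. The median of this distance over all genes was 1.497. All of them shared the lowest reading on ZsG plus replicate 2, where B230217C12Rik read 22.1, Tcea3 63.8 and 9430053O09Rik 15.8. The distance is a description of these arrays.

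Crlf2, the gene of the TSLP receptor chain, had 1 probe set and stood out on a single array. It read 222, 598 and 12362 in the ZsG plus replicates, 187, 338 and 325 in the ZsG minus mTEC replicates, and 273, 587 and 464 in the ZsG minus cTEC replicates. The third ZsG plus reading lay far above all others, and the other ZsG plus readings fell among those of the ZsG minus groups or close to them. The log2 difference was 2.11 ± 1.27 against ZsG minus mTEC (limma adjusted p = 0.500) and 1.49 ± 1.27 against ZsG minus cTEC (limma adjusted p = 0.561). Without ZsG plus replicate 3 these became 0.41 ± 0.64 and −0.20 ± 0.64. ZsG minus mTEC and ZsG minus cTEC differed by −0.62 ± 1.27 (limma adjusted p = 0.944).

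Crlf2 is expressed by dendritic cells, so their markers were read on that array. The summed intensity of 11 dendritic cell and macrophage markers was 101577 on ZsG plus replicate 3, the highest of all arrays. It was 35062 and 49376 on the other ZsG plus arrays, 40869 to 56268 for ZsG minus mTEC and 18710 to 57299 for ZsG minus cTEC. On ZsG plus replicate 3, 9 of the 11 markers were above the bacterial controls. Lyz2, the lysozyme gene of myeloid cells, read 66337 there, the largest part of the sum, and 31836 to 39773 for ZsG minus mTEC. Csf1r, the receptor of the macrophage growth factor CSF1, read 10206. Cd209a and Xcr1, markers of dendritic cell subsets, were dim at 81.6 and 177. The others read 3335 for Itgax, 702 for Itgam, 4765 for Flt3, 708 for Siglech, 691 for Adgre1, 13388 for C1qb and 1184 for Zbtb46. Itgax was at its highest of all arrays there and Zbtb46 at its lowest. The part of these cells in the Crlf2 reading was not tested. In RNA from sorted pools, fewer cells of a type and less RNA per cell cannot be told apart.

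**Figure D2:**
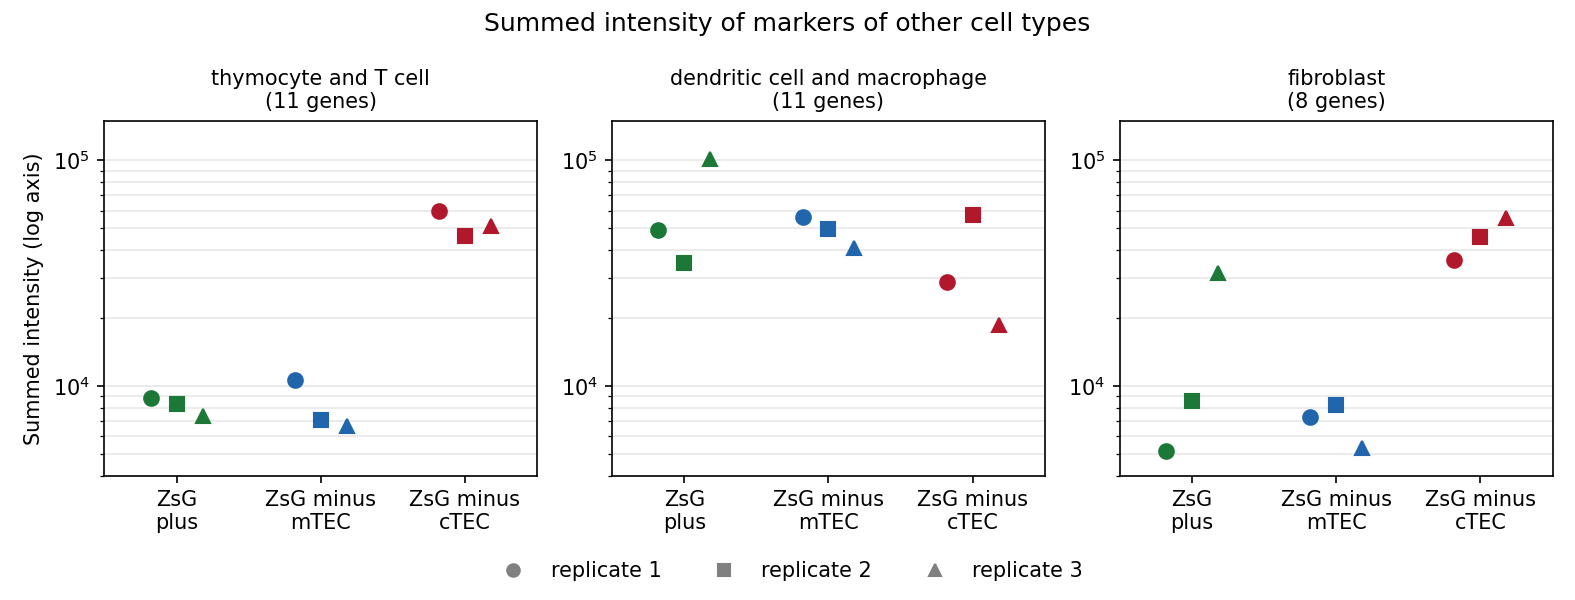
Summed intensity on a log axis of the thymocyte and T cell, dendritic cell and macrophage, and fibroblast markers on every array, by group, with the symbol giving the replicate number. Thymocyte sums lie at 46159 to 59994 for ZsG minus cTEC, above all other arrays, and the dendritic cell and macrophage sum is highest on ZsG plus replicate 3, at 101577.

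Il7r encodes the alpha chain shared by the receptors for IL-7 and TSLP, and its level was highest in ZsG minus cTEC. The brightest probe set, 1448575_at, read 6781, 30.8 and 285 in the ZsG plus replicates, 918, 1694 and 2114 in the ZsG minus mTEC replicates, and 6947, 8238 and 2500 in the ZsG minus cTEC replicates. The ZsG minus groups did not overlap, while ZsG plus spanned both and was dim on replicates 2 and 3. The log2 difference was −1.93 ± 1.61 for ZsG plus against ZsG minus mTEC (limma adjusted p = 0.620), −3.74 ± 1.61 for ZsG plus against ZsG minus cTEC (limma adjusted p = 0.255), and −1.81 ± 1.61 between ZsG minus mTEC and ZsG minus cTEC (limma adjusted p = 0.777).

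The other Il7r probe set, 1448576_at, read 248, 1724 and 20.1 in the ZsG plus replicates, 360, 260 and 241 in the ZsG minus mTEC replicates, and 1735, 1637 and 1114 in the ZsG minus cTEC replicates. Both probe sets placed ZsG minus mTEC below ZsG minus cTEC without overlap. They disagreed within ZsG plus, where the brightest was high on replicate 1 and the other on replicate 2. The other was dim on ZsG plus replicate 3. Without ZsG plus replicate 1 the brightest probe set fell by 5.80 ± 1.02 on the log2 scale against ZsG minus cTEC and passed the threshold (limma adjusted p = 0.0317). The 2 ZsG plus arrays left were both dim, so that size is not settled, and over 18 alternatives that p ran up to 0.481. It differed by −1.91 ± 1.26 without ZsG plus replicate 2.

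Thymocytes express Il7r at some stages only, and thymocyte markers, not split by stage here, were also highest in ZsG minus cTEC. The summed intensity of 11 thymocyte and T cell markers was 7358 to 8872 for ZsG plus and 6608 to 10670 for ZsG minus mTEC, against 46159 to 59994 for ZsG minus cTEC. On ZsG plus replicate 1 the brightest Il7r probe set read 6781, within the range of ZsG minus cTEC, and the other read 248. The marker sum there was 8872. Its largest part was Cd3g at 4005, above the 2482 to 3776 that Cd3g read in ZsG minus cTEC. Each other marker read below all ZsG minus cTEC arrays there. On all 3 arrays, 1 of these markers was above the bacterial controls in ZsG plus, 8 for ZsG minus mTEC and 10 for ZsG minus cTEC. The brightest control read highest on ZsG plus replicates 2 and 3, so these counts do not compare marker levels between groups. Of the 11, 2 fell in ZsG plus against ZsG minus cTEC, where 1.14% of all genes fell. In ZsG minus mTEC against ZsG minus cTEC 1 of the 11 fell, where 0.0989% of all genes did. The rest did not pass. The part of these cells in the Il7r signal was not tested.

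Il7 is the gene of the cytokine IL-7, and its readings overlapped between all groups. Its brightest probe set, 1436861_at, read 3805, 3658 and 732 in the ZsG plus replicates, 1139, 3161 and 3120 in the ZsG minus mTEC replicates, and 4301, 2918 and 4293 in the ZsG minus cTEC replicates. The other, 1422080_at, read 3157, 1397 and 365 in the ZsG plus replicates, 2762, 2438 and 1848 in the ZsG minus mTEC replicates, and 4050, 2323 and 4246 in the ZsG minus cTEC replicates. Both were lowest on ZsG plus replicate 3 and both had their highest group mean in ZsG minus cTEC.

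For the brightest Il7 probe set the log2 difference was −0.05 ± 0.78 for ZsG plus against ZsG minus mTEC, with a 95% interval of −1.79 to 1.70. It was −0.80 ± 0.78 for ZsG plus against ZsG minus cTEC and −0.75 ± 0.78 between ZsG minus mTEC and ZsG minus cTEC. The limma adjusted p-values were 0.984, 0.614 and 0.819. The sign against ZsG minus mTEC turned to 0.74 ± 0.60 without ZsG plus replicate 3 (limma adjusted p = 0.607), to 0.20 ± 0.91 and 0.19 ± 0.91 without ZsG minus mTEC replicates 2 and 3, and to 0.58 with each array centred on its median.

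Il33 was low in ZsG minus mTEC beside ZsG minus cTEC. Its probe set read 1760, 312 and 128 in the ZsG plus replicates, 216, 371 and 337 in the ZsG minus mTEC replicates, and 1096, 1195 and 1458 in the ZsG minus cTEC replicates. The ZsG minus groups were tight and did not overlap. ZsG plus replicate 1 lay above all ZsG minus cTEC arrays, and replicates 2 and 3 were dim. Replicate 2, where the brightest control read 341, still lay within the range of ZsG minus mTEC, which was not dim. Between ZsG minus mTEC and ZsG minus cTEC the log2 difference was −2.05 ± 0.88, or a ratio of 0.242, and did not pass over all genes (limma adjusted p = 0.390).

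ZsG plus differed from ZsG minus mTEC in Il33 by 0.46 ± 0.88 (limma adjusted p = 0.847) and from ZsG minus cTEC by −1.59 ± 0.88 (limma adjusted p = 0.367). Without ZsG plus replicate 1 these became −0.59 ± 0.60 and −2.63 ± 0.60, with limma adjusted p-values of 0.635 and 0.0540. The 2 ZsG plus arrays left were both dim, so these sizes are not settled. Fibroblasts and endothelial cells are known sources of Il33. The sum of 8 fibroblast markers was 5118, 8557 and 31793 for ZsG plus and 5325 to 8256 for ZsG minus mTEC, against 36234 to 55416 for ZsG minus cTEC. For 6 endothelial markers it was 1186 to 2120 for ZsG plus and 1233 to 1909 for ZsG minus mTEC, against 2158 to 2625 for ZsG minus cTEC. Of the 8 fibroblast markers, 4 for ZsG plus, 6 for ZsG minus mTEC and 6 for ZsG minus cTEC were above the bacterial controls on all 3 arrays. The level of these controls differed between arrays. Within ZsG plus, Il33 was highest on replicate 1, and the fibroblast sum on replicate 3. The endothelial sum was, like Il33, highest on replicate 1, at 2120, and Kdr gave most of it at 1808. It was 1186 on replicate 2 and 1538 on replicate 3. Of the 6 endothelial markers, 0 were above the bacterial controls on all 3 ZsG plus arrays. The part of fibroblasts and endothelial cells in the Il33 signal was not tested.

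Among the inducers, Vdr, the vitamin D receptor gene, was highest in ZsG minus mTEC. Its brightest probe set, 1418175_at, read 1659, 3456 and 1435 in the ZsG plus replicates, 3119, 5161 and 3575 in the ZsG minus mTEC replicates, and 834, 1228 and 825 in the ZsG minus cTEC replicates. ZsG minus mTEC lay above ZsG minus cTEC without overlap, and so did ZsG plus, while ZsG plus and ZsG minus mTEC overlapped. The log2 difference between ZsG minus mTEC and ZsG minus cTEC was 2.03 ± 0.57, a ratio of 4.08 with a 95% interval of 0.75 to 3.31 on the log2 scale. It had rank 641 of 18194 genes by p and did not pass (limma adjusted p = 0.160). With array weights, which give less weight to the more variable arrays, it passed at 2.03 ± 0.40 (limma adjusted p = 0.0202), and over 18 alternatives that p ran up to 0.402.

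ZsG plus differed in Vdr by −0.94 ± 0.57 from ZsG minus mTEC (limma adjusted p = 0.504) and by 1.09 ± 0.57 from ZsG minus cTEC (limma adjusted p = 0.336). The other Vdr probe set, 1418176_at, read 2189, 1042 and 409 in the ZsG plus replicates, 1551, 2882 and 1783 in the ZsG minus mTEC replicates, and 1110, 826 and 1121 in the ZsG minus cTEC replicates. It also kept the ZsG minus groups apart, at 0.99 ± 0.71 in the fit of all probe sets (limma adjusted p = 0.736). For ZsG plus against ZsG minus cTEC it gave −0.05 ± 0.71, so the probe sets disagreed there.

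Rxrb encodes a retinoid X receptor and read lowest in ZsG plus. Its probe set read 33.8, 132 and 226 in the ZsG plus replicates, 632, 640 and 1458 in the ZsG minus mTEC replicates, and 726, 2019 and 480 in the ZsG minus cTEC replicates. No ZsG plus reading reached any other, and all 3 were dim, so the size of the difference is not settled. The log2 difference was −3.07 ± 0.86 against ZsG minus mTEC, with a 95% interval of −5.00 to −1.13 (limma adjusted p = 0.189). Against ZsG minus cTEC it was −3.15 ± 0.86, with an interval of −5.09 to −1.21 (limma adjusted p = 0.104). Both ZsG plus comparisons use the same 3 ZsG plus arrays. The ZsG minus groups differed by −0.08 ± 0.86 (limma adjusted p = 0.993). Over 18 alternatives the difference kept its sign, at −3.65 to −2.28 against ZsG minus mTEC and −3.74 to −2.37 against ZsG minus cTEC, and the smallest limma adjusted p-values were 0.125 and 0.0639.

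Rxra, the gene of another retinoid X receptor, had 3 probe sets, which did not give the same order of groups. The brightest, 1454773_at, read 1103, 1236 and 4242 in the ZsG plus replicates, 369, 449 and 853 in the ZsG minus mTEC replicates, and 904, 1222 and 530 in the ZsG minus cTEC replicates. By this probe set ZsG plus lay above ZsG minus mTEC without overlap, at 1.78 ± 0.71 (limma adjusted p = 0.333), and differed from ZsG minus cTEC by 1.10 ± 0.71 (limma adjusted p = 0.435). ZsG minus mTEC and ZsG minus cTEC differed by −0.68 ± 0.71 (limma adjusted p = 0.820).

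The second Rxra probe set, 1425762_a_at, read 117, 855 and 204 in the ZsG plus replicates, 1583, 779 and 657 in the ZsG minus mTEC replicates, and 423, 355 and 473 in the ZsG minus cTEC replicates. It thus put ZsG plus below ZsG minus mTEC, at −1.77 ± 0.80 in the fit of all probe sets (limma adjusted p = 0.369), but ZsG plus replicates 1 and 3 were dim, so the size is not settled. The third, 1430497_at, read 159, 25.05 and 158 in the ZsG plus replicates, 209.5, 93.8 and 101 in the ZsG minus mTEC replicates, and 21.3, 7.82 and 21.9 in the ZsG minus cTEC replicates. All 3 ZsG minus cTEC readings of this probe set were dim, as were ZsG plus replicates 2 and 3 and ZsG minus mTEC replicate 2, so no size or direction is read from it. With the mean of all probe sets, the Rxra difference for ZsG plus against ZsG minus mTEC turned to −0.18 and that between the ZsG minus groups to 1.17. That mean gives the third probe set equal weight, at 3.03 between the ZsG minus groups, so its sign is not settled either. Against ZsG minus mTEC the sign for Rxra thus differed between the brightest and the second probe set.

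**Figure D3:**
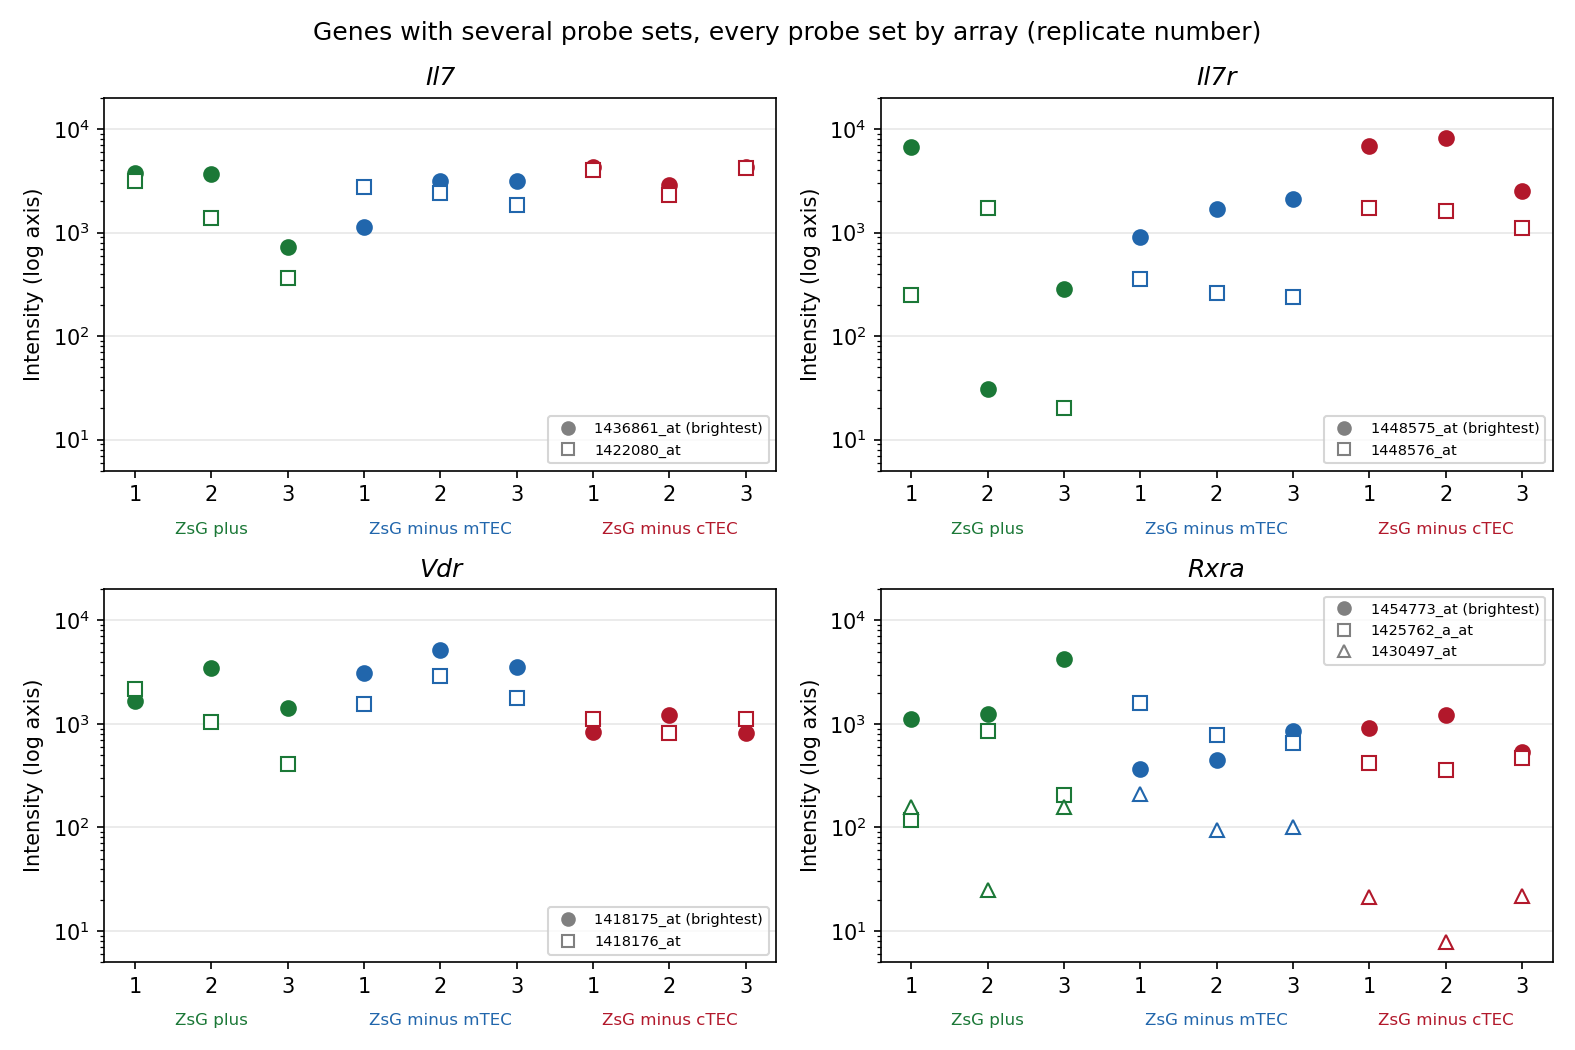
Intensity on a log axis of every probe set of Il7, Il7r, Vdr and Rxra on every array, by group and replicate number; filled symbols mark the brightest probe set and open symbols the others. The Il7r probe sets are high on different ZsG plus arrays, at 6781 on replicate 1 and 1724 on replicate 2, and the Rxra probe sets order the groups differently.

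RefSeq lists Rxra with a pair of start sites in GRCm38.p6, and their promoter windows are shown because the Rxra probe sets disagree. Each window runs from 250 bases before to 50 bases after a start. VDR and RXR dimers bind pairs of a half-site spelled AGGTCA in its ideal form, and capitals mark matches to AGGTCA or to its reverse complement TGACCT. The first window is chr2:27676951-27677250 and the second chr2:27709042-27709341, both on the plus strand.
Rxra, upstream start: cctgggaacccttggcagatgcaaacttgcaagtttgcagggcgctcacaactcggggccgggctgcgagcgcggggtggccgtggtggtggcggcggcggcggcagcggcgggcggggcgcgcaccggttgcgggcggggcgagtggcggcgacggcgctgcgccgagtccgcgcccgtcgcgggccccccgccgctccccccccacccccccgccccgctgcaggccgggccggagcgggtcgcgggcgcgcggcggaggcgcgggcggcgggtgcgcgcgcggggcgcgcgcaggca
Rxra, downstream start: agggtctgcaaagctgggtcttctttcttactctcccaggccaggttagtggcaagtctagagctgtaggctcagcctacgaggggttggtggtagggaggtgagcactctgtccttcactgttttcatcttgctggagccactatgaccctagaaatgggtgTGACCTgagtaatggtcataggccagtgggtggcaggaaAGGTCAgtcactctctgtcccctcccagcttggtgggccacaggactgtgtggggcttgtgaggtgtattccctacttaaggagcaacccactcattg

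The downstream Rxra window held 2 matches and the upstream window 0. The matches were TGACCT and then AGGTCA, so on opposite strands, and whether their spacing is that of a dimer site was not tested. Of all 32851 windows in the table, 16.3% held at least 1 match on either strand and 1.81% at least 2. For the 10 genes, windows on chromosome 18, where Tslp lies, were left out. Elsewhere the table held 11 windows for 7 of the 10 genes, namely Crlf2, Il1rl1, Il33, Il7r, Rxra, Rxrb and Vdr. The other window with a match belonged to Il1rl1. A match describes these letters only. Which start site each Rxra probe set reads was not tested.

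**Figure D4:**
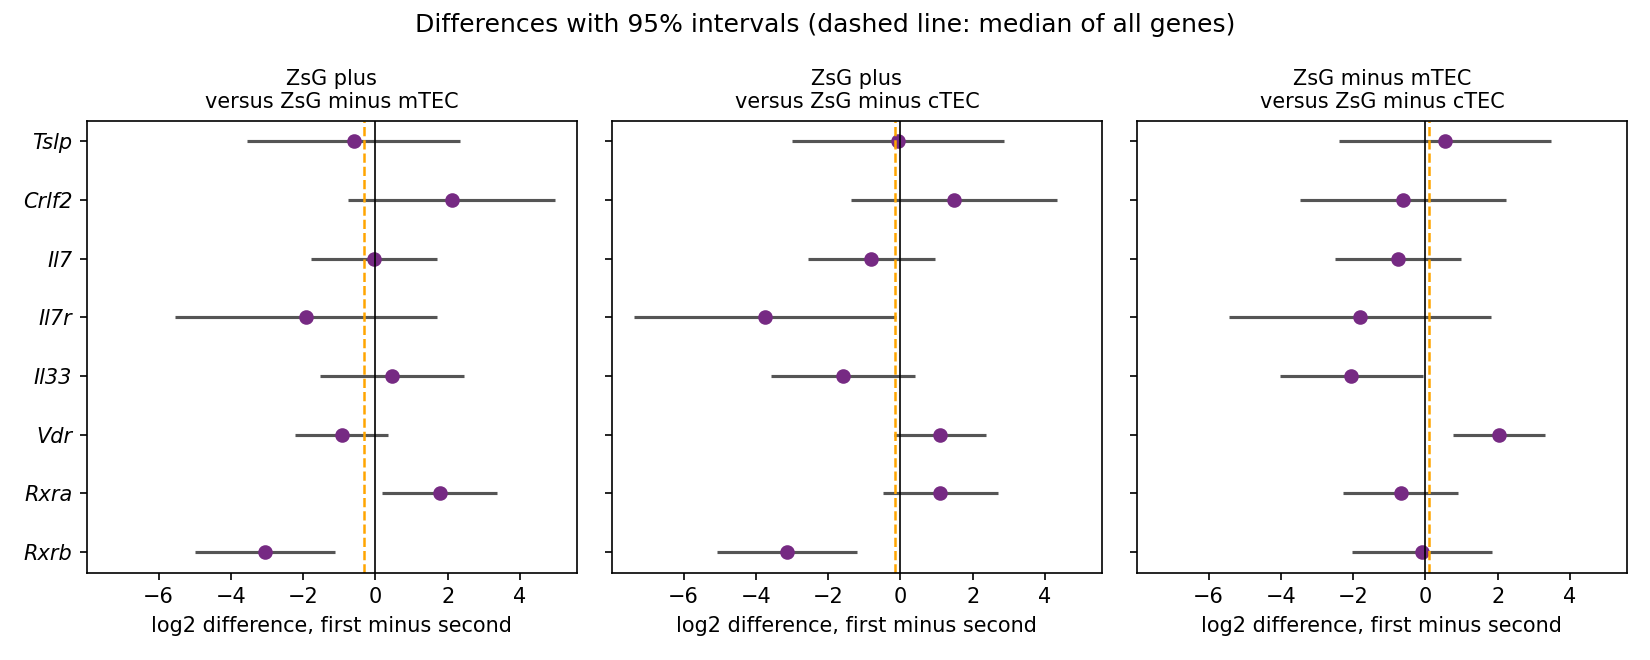
Log2 difference of each gene, first group minus second, in the 3 comparisons, with bars for the 95% interval from limma, a solid line at 0 and a dashed line at the median of all genes. Intervals leave out 0 for Rxra and Rxrb against ZsG minus mTEC, for Il7r and Rxrb against ZsG minus cTEC, and for Il33 and Vdr between the ZsG minus groups, before any adjustment.

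Genes that act with these proteins were read from 6 lists of 80 genes, of which 73 were measured. In the list of TSLP and IL-7 receptor signalling, 0 of 11 measured genes passed in any comparison. At an unadjusted p under 0.05 it held 0 genes against ZsG minus mTEC, 1 lower against ZsG minus cTEC and 0 between the ZsG minus groups. The median log2 difference was −0.15 for ZsG plus against ZsG minus mTEC, −0.55 for ZsG plus against ZsG minus cTEC and −0.15 between the ZsG minus groups. Mcl1, a survival gene downstream of these cytokines, read 43492, 47273 and 57396 in the ZsG plus replicates, 24579, 28515 and 25843 in the ZsG minus mTEC replicates, and 25210, 28373 and 34235 in the ZsG minus cTEC replicates. ZsG plus lay above both other groups without overlap in Mcl1, by 0.90 ± 0.48 and 0.76 ± 0.48, and did not pass (limma adjusted p = 0.451 and 0.435). Stat3, a transcription factor activated by many cytokine receptors, differed by −0.79 ± 0.87 and −0.55 ± 0.87 in the same comparisons.

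In the list of IL-33 receptor signalling, 0 of 7 measured genes passed in any comparison, and 0 had an unadjusted p under 0.05. The median was −0.83 for ZsG plus against ZsG minus mTEC, −0.45 for ZsG plus against ZsG minus cTEC and 0.03 between the ZsG minus groups. Traf6, a ubiquitin ligase of this pathway, differed by −0.42 ± 0.88 against ZsG minus mTEC and by 0.18 ± 0.88 against ZsG minus cTEC. Irak1, a kinase upstream of Traf6, differed by 0.93 ± 0.60 and 0.35 ± 0.60.

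Of 12 other cytokine genes of epithelium and stroma, 0 passed in any comparison. At an unadjusted p under 0.05, 0 stood apart in ZsG plus against ZsG minus mTEC, 4 were higher and 2 lower against ZsG minus cTEC, and 3 were higher and 2 lower in ZsG minus mTEC against ZsG minus cTEC. The list medians were −0.09, −0.63 and −0.54 in that order. Csf2, the gene of the myeloid growth factor GM-CSF, read 4628, 2001 and 5314 in the ZsG plus replicates, 6930, 1931 and 1959 in the ZsG minus mTEC replicates, and 269.985, 560 and 775 in the ZsG minus cTEC replicates. Every ZsG plus and ZsG minus mTEC reading was above all ZsG minus cTEC readings. The log2 difference from ZsG minus cTEC was 2.91 ± 0.74 for ZsG plus (limma adjusted p = 0.0876) and 2.60 ± 0.74 for ZsG minus mTEC (limma adjusted p = 0.169), so Csf2 did not pass. It passed against ZsG minus cTEC in ZsG plus with an offset of 50, at 2.77 (limma adjusted p = 0.0472), and in ZsG minus mTEC with array weights, at 2.68 (limma adjusted p = 0.0327). Csf1, the macrophage growth factor gene, differed by −0.08 ± 0.89 for ZsG plus against ZsG minus mTEC and by −0.59 ± 0.89 for ZsG plus against ZsG minus cTEC.

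Of 11 receptor genes for other epithelial and type 2 cytokines, 0 passed in any comparison. At an unadjusted p under 0.05, ZsG plus was lower than ZsG minus mTEC for 2, 1 was higher and 1 lower against ZsG minus cTEC, and 1 was higher and 1 lower between the ZsG minus groups. The list medians were −0.61, −0.72 and 0.28 in that order. Il17ra, a receptor chain for IL-17 family cytokines, differed by 0.12 ± 0.71 for ZsG plus against ZsG minus mTEC and by −0.33 ± 0.71 for ZsG plus against ZsG minus cTEC. Tnfrsf1b, a receptor gene for TNF, differed by −2.29 ± 0.83 between ZsG minus mTEC and ZsG minus cTEC (limma adjusted p = 0.288). It passed at −2.29 with only the 6 arrays compared (limma adjusted p = 0.0457) and at −2.33 with array weights (limma adjusted p = 0.0343).

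The list of vitamin D and retinoid genes had 17 measured members, of which 1 fell in ZsG plus against ZsG minus cTEC, where 1.14% of all genes fell. This was Aldh1a1, which encodes an enzyme that makes retinoic acid. It read 45.8, 9.59 and 7.50 in the ZsG plus replicates, 277, 348 and 336 in the ZsG minus mTEC replicates, and 446, 1129 and 1509 in the ZsG minus cTEC replicates. No ZsG plus reading came near the others, and Aldh1a1 fell by 5.94 ± 0.80 on the log2 scale against ZsG minus cTEC (limma adjusted p = 0.0169). It passed in 11 of 17 alternatives, with a limma adjusted p of 0.00823 to 0.0926. It did not pass when any 1 ZsG minus cTEC array was left out, at −6.46, −5.78 and −5.58 without replicates 1, 2 and 3, nor with only the 6 arrays compared, array weights or the replicate block. Against ZsG minus mTEC it differed by −4.42 ± 0.80 and did not pass (limma adjusted p = 0.0747), but without ZsG plus replicate 1 it did, at −5.23 ± 0.65 (limma adjusted p = 0.0282). The ZsG plus readings of Aldh1a1 lay within the range of the bacterial controls, so the size is not settled. The list median was −0.26 for ZsG plus against ZsG minus mTEC and −0.41 for ZsG plus against ZsG minus cTEC. Ncoa2, a coactivator gene of nuclear receptors, differed by 0.37 ± 0.50 and 0.08 ± 0.50, and Med1, whose Mediator subunit binds VDR, by −2.09 ± 1.16 and −3.09 ± 1.16. Med1 did not pass (limma adjusted p = 0.466 and 0.198). It read 4653, 1302 and 104 in the ZsG plus replicates and was dim on replicate 3, so these sizes are not settled.

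The list of protease-activated receptors, proteases and inhibitors had 15 measured members. Of these 1 rose in ZsG plus against ZsG minus cTEC, where 0.599% of all genes rose, and the same gene rose in ZsG minus mTEC against ZsG minus cTEC, where 0.528% did. It was Spink5, an inhibitor of kallikreins in the epidermis whose loss in human skin is known to raise TSLP through PAR2. Spink5 read 3304, 2349.7 and 7829 in the ZsG plus replicates, 4516, 5603 and 5096 in the ZsG minus mTEC replicates, and 471, 468 and 214 in the ZsG minus cTEC replicates. It rose by 3.44 ± 0.63 for ZsG plus (limma adjusted p = 0.0381) and by 3.81 ± 0.63 for ZsG minus mTEC (limma adjusted p = 0.0451). Each of these calls held in 9 of 18 alternatives, with a limma adjusted p up to 0.139 for ZsG plus and 0.160 for ZsG minus mTEC. Without any 1 array of either ZsG minus group neither call held, at 3.07 to 3.64 for ZsG plus and 3.43 to 3.997 for ZsG minus mTEC. The comparisons share the ZsG minus cTEC arrays. For ZsG plus against ZsG minus mTEC, Spink5 overlapped and differed by −0.36 ± 0.63.

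The brightest members of this list that did not pass were Spint2 and Spint1, both genes of protease inhibitors of epithelium. Spint2 differed by −0.95 ± 0.51 for ZsG plus against ZsG minus mTEC and by 0.29 ± 0.51 for ZsG plus against ZsG minus cTEC. Spint1 differed by 0.37 ± 0.52 and 1.16 ± 0.52. The list median was −0.56 against ZsG minus mTEC, 0.29 against ZsG minus cTEC and 0.72 between the ZsG minus groups.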

How the data were processed

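Each array came as the authors' deposited intensity of 45101 probe sets, on a linear scale. Their software is not given in the sources used here. The trimmed mean, leaving out 2% at either end, came to 1250.01 on every array, a common scale. Per the labels' protocols, 5 ng of RNA was amplified with an Ovation Pico kit. Values were log2-transformed without an offset. Names came from GEO's platform annotation: 34958 probe sets had 1 symbol, 932 several and 9211 none. The probe set with the highest mean log2 value over the 9 arrays was kept for each of 18194 genes.

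The comparisons used limma 3.58.1 under R 4.3.3 (lmFit, eBayes, 1 coefficient per group over all 9 arrays), two-sided, with Benjamini-Hochberg adjustment over all genes and a threshold of 0.05. Residual degrees of freedom were 6 and prior 3.28. The steps were tested on simulated data. The number of arrays limits the precision. The 10 genes and the lists were chosen with earlier results of these data known. From each list, genes past the threshold and the 2 brightest others were named; for Tslp, the 3 genes nearest in pattern. Alternatives were quantile normalization, centring, an offset of 50, a filter at the 40th percentile, the mean of all probe sets, 6 arrays, array weights, a replicate block and leaving out each array. A fit of all probe sets with 1 symbol was added after seeing the data. Figures were drawn with matplotlib 3.10.9.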

Additional observations from a re-analysis of the deposited data

How the results depend on the processing

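For the 8 measured genes in 3 comparisons, 18 alternatives gave 432 differences, of which 407 kept their direction and side of the threshold, 22 changed sign and 3 passed the threshold (limma). None of the 22 passed. The genes passing numbered 1 of 8 in 2 of these settings for the ZsG minus groups, mTEC over cTEC: Il33 at −2.05 with only the 6 arrays compared (limma adjusted p = 0.0498) and Vdr with array weights. Leaving out arrays gave 0 to 1 for ZsG plus versus ZsG minus cTEC, the 1 being Il7r without ZsG plus replicate 1. Signs that changed for ZsG plus versus ZsG minus mTEC were Il7, at 0.14 with quantile normalization, 0.58 with centring and 0.16 with array weights, Tslp, at 0.021 with centring, and Rxra, at −0.18 with the mean of all probe sets. For ZsG plus versus ZsG minus cTEC, Tslp stood at 0.42 with quantile normalization, 0.38 with centring and 0.21 with the offset. Between the ZsG minus groups, Rxra stood at 1.17 with the mean of all probe sets. When arrays were left out, ranges that crossed 0 were −1.64 to 1.03 for Tslp, −0.53 to 0.74 for Il7 and −0.59 to 1.30 for Il33 against ZsG minus mTEC. They were −1.10 to 1.57 for Tslp and −0.20 to 2.69 for Crlf2 against ZsG minus cTEC, and −0.18 to 1.17 for Tslp and −0.53 to 0.51 for Rxrb between the ZsG minus groups.

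Over all genes, 40 passed for ZsG plus versus ZsG minus mTEC, but 15 with quantile normalization, 3 with centring, 101 with the offset, 26 with the filter, 82 with all probe sets, and 0 with the 6 arrays, array weights or the replicate block (1785, 1705 and 2320 at an unadjusted p under 0.05). For ZsG plus versus ZsG minus cTEC 317 passed, but 660 with the offset, 528 with the filter, 496 with the mean of all probe sets, 536 with all probe sets, 0 with the 6 arrays (2704 unadjusted), 37 with array weights and 16 with the replicate block. For the ZsG minus groups 114 passed, but 178 with quantile normalization, 48 with centring, 334 with the offset, 216 with the mean of all probe sets, 43 with all probe sets, 548 with the 6 arrays, 1220 with array weights and 0 with the replicate block (2172 unadjusted). Leaving out 1 array gave 0 to 230, 0 to 735 and 0 to 304 genes in these comparisons, with 1756 to 3321, 2437 to 4083 and 1697 to 2850 at an unadjusted p under 0.05. The cause of these changes was not tested. Arrays of the same replicate number did not deviate together across genes (r −0.015 to 0.013 over 9 pairs). Such an r cannot show whether arrays of the same number share animals or a day, so pairing is not settled. With the replicate block, 0 of the 8 genes passed in any comparison. For the Aldh1a1 call and the 2 Spink5 calls, 53 such values held none of opposite sign, and 24 no longer passed. Aldh1a1 was below the filter, so that alternative gave no value for it. Of 700 values for the differences of named list genes that had not passed, 32 changed sign and 5 passed.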
